A study of Mus musculus with 2 samples.

Results

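Zic1, Irx1, Irx2, Irx3, Irx5, Tbx15, Tbx18, Tbx5 and En1 are transcription factors that mark where in the body a mesodermal cell comes from, and their transcripts were followed in cultured adipocyte precursors of white (WAT) and brown (BAT) adipose tissue. They were taken as a list of 9 of the 32285 genes in both matrices, by name and with no threshold on a value, although earlier results of these data were known when the list was drawn up. Zic1 separated the depots, at 26.3 CPM in BAT precursors and 1 transcript in all WAT precursors (CPM, transcripts of a gene scaled to a common total per population). Irx3 and Irx5 were 2.99-fold and 2.22-fold higher in BAT, whereas the other 6 genes differed by less than 2-fold between the depots. The shares of WAT cells with Irx3 or Irx5 could not be told from background, which limits their ratios. Within the depots, Irx2 was detected more often in cells with Irx1 than in cells without it, and Tbx18 was highest in the fibro-adipogenic progenitor-like cells of both.

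Factors of this kind are switched on in the embryo according to position and often remain active in the connective tissue cells that descend from the marked region. The zinc finger protein Zic1 and the homeodomain protein Engrailed 1 (En1) mark dorsal somite and central dermomyotome, the somite layer from which dorsal dermis and interscapular brown fat arise, and Zic1 is widely used as a marker of brown as opposed to white fat. Iroquois (Irx) genes encode homeodomain factors and lie in conserved clusters, Irx1 and Irx2 in one and Irx3 and Irx5 in the other, and the latter pair is best known in fat for its regulation by obesity-associated DNA of the Fto gene. T-box factors act regionally as well: Tbx5 specifies the forelimb, Tbx15 patterns dorsal skin and skeleton and influences adipocyte differentiation, and Tbx18 keeps somite compartments distinct and marks mural cells of vessels.

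Each depot was represented by 1 library, prepared from the pooled tissue of 4 male and female C57/BL6J pups (P0 in the labels, whereas the methods of the paper give another day of age). The stromal cells of subcutaneous WAT were released by collagenase in 35 min and those of interscapular BAT in 50 min, and both were grown for 4 days to confluency before capture (the text of the paper elsewhere gives another number of days), so all values describe cultured cells. The labels name no genetic or drug treatment for either library. Depot, digestion time and capture cannot be told apart, and without a second library no p-value was computed. All intervals in brackets are 95% intervals for counting error alone, and reads of 1 molecule were already merged by their unique molecular identifier (UMI).

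In all, 4332 WAT and 5960 BAT precursors were examined, with a median of 26950 and 26417 UMIs per cell. The libraries shared 9 cell barcodes. All 3 precursor markers (Pdgfra, Pdgfrb and Dlk1) exceeded 10 CPM in each cluster except the differentiating wFAPLs, where 2 of 3 did. The myoblasts and myeloid cells of BAT, which were set aside, also had all 3 over 10 CPM, so this check alone does not set precursors apart. Cluster names are those of the study: early precursors wAPC 1 to 4 and bAPC 1 to 5, committed adipocyte precursors (wCAPs, bCAPs), fibro-adipogenic progenitor-like cells (wFAPLs, bFAPLs) and a small cluster of differentiating wFAPLs. Cluster levels rest on 1999 precursors per depot, the first listed in the study's source data, for which the study's own label was at hand. The study itself clustered all of its precursors. As the clusters were built from the same counts, and Irx1 is among the genes the study uses to mark wAPC 2, levels by cluster are descriptions. A level in CPM is the sum of UMIs of a gene over the cells divided by all their UMIs and scaled to CPM, and it was compared for the same gene only.

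In the mouse genome (GRCm38), Zic1 lies at chr9:91358058-91365810 on the minus strand and overlaps its neighbour Zic4 on the opposite strand by 3398 bases. Tbx18 lies on the same chromosome, at chr9:87702800-87731260. Irx1 (chr13:71957921-71963723) and Irx2 (chr13:72628820-72634198) are 665 kb apart, and Irx4 follows Irx2 after 626 kb. Irx3 (chr8:91798525-91802067) and Irx5 (chr8:92357625-92376286) are 556 kb apart, with Irx6 beyond Irx5 at 298 kb and the antisense transcript Irx3os overlapping Irx3 by 1653 bases. Tbx5 (chr5:119832668-119885219) stands 148 kb from Tbx3, Tbx15 spans chr3:99240381-99354259 and En1 chr1:120602418-120607992. Counting was by Cell Ranger with default parameters, which for this chemistry count reads on the sense strand, so overlapping genes on opposite strands were counted apart.

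Promoter sequence was at hand for 5 of the 9 genes, and 4 stretches directly upstream of the annotated start are shown because they belong to the gene that separated the depots (Zic1), to a gene found in both at less than 2-fold difference (En1), to a gene that was detected more often beside its neighbour (Irx2) and to the gene that was highest in fibro-adipogenic cells (Tbx18). They are RefSeq sequences of GRCm38.p6, at chr9:91365811-91366018 (minus strand, 208 bases) for Zic1, chr1:120602237-120602417 (plus, 181 bases) for En1, chr13:72628570-72628819 (plus, 250 bases) for Irx2 and chr9:87731261-87731510 (minus, 250 bases) for Tbx18, the last of which lies in an exon of the long non-coding RNA D030062O11Rik. Capitals mark the letters CCAAT and CACGTG on either strand.
Zic1: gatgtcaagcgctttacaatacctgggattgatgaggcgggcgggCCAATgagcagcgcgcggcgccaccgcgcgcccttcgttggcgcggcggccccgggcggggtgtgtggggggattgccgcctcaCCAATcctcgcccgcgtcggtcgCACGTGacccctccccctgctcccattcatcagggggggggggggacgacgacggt
En1: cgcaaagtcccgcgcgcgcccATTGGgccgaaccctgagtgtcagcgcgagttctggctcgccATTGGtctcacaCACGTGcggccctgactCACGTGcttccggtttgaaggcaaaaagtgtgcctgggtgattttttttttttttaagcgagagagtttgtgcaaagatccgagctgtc
Irx2: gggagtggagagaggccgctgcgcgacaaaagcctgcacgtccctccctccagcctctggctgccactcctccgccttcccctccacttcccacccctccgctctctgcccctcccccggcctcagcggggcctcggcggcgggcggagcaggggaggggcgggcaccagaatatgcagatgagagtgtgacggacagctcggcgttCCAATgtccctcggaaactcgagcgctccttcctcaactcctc
Tbx18: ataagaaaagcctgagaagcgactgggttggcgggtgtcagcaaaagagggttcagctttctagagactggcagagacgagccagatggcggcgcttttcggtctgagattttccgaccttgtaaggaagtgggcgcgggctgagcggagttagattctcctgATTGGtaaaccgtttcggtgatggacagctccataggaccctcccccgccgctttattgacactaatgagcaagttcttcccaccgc

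All 4 stretches held CCAAT, which is common in promoters. Zic1 and En1 had 2 matches each, and 29.6% and 25.2% of 32851 promoter windows of the same lengths had at least 1. CACGTG, an E-box, was found in 1 place in the Zic1 stretch (4.59% of windows) and in 2 places in the En1 stretch (3.72%). Irx2 and Tbx18 had 1 match each of CCAAT, found in 33.8% of windows of 250 bases. The other 4 of the 6 motifs searched on both strands had no match in these letters. They were the TATA box TATAAA (in 12.4% of windows of 250 bases), the homeodomain motif TAATTA (4.84%), the T-box core AGGTGT (11.8%), and the Iroquois motif with letters ACANNTGT (6.31%). The matches describe the sequences and say nothing about binding.

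Zic1 was a BAT transcript in these cultures. WAT precursors held 1 UMI of Zic1 in 122939077 UMIs, or 0.00813 CPM (0.000206 to 0.0453), and BAT precursors held 4463 UMIs, or 26.3 CPM (25.6 to 27.1). The ratio of BAT to WAT was 3235 (580 to 127819), a log2 ratio of 11.66 with a wide interval because of the lone WAT molecule. At a matched depth of 10000 UMIs per cell, 19.8% of BAT precursors (18.8 to 20.9) had a Zic1 UMI against 0% of WAT precursors. With all UMIs the share in BAT was 40.9%. Among the other cell types of BAT, 0% of 68 glial cells and 5.19% of 77 myeloid cells (1.43 to 12.8) had a Zic1 UMI at the same depth, with medians of 19495 and 26193 UMIs per cell.

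Other Zic genes followed the same depot. Zic4, the divergent neighbour, had 1 UMI in WAT and 1052 in BAT (6.20 CPM), a ratio of 763 (137 to 30151). Zic5 had 1 and 254 UMIs. Zic2 was at 0 UMIs in WAT and at 140 UMIs in BAT, a level below 1 CPM, and its log2 ratio was at least 5.08 against a floor of 3 UMIs in the WAT library.

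Among the Iroquois genes, the chromosome 8 pair was higher in BAT. Irx3 was at 2.73 CPM (2.45 to 3.04) in WAT and 8.17 CPM (7.74 to 8.61) in BAT, a log2 ratio of 1.58 (1.41 to 1.76). Irx5 was at 4.64 CPM (4.26 to 5.03) and 10.3 CPM (9.83 to 10.8), a log2 ratio of 1.15 (1.02 to 1.29). Irx3os, counted apart from Irx3, was at 0.171 and 0.601 CPM, a log2 ratio of 1.82 (1.13 to 2.57), whereas Irx6 had 1 UMI in WAT and 0 in BAT. At matched depth, Irx3 was detected in 2.49% of WAT and 7.23% of BAT precursors and Irx5 in 3.83% and 9.46%. Of the few other cells, 1 of 46 WAT glial cells (2.17%) had Irx3, 1 of 29 WAT myeloid cells (3.45%) had Irx5, and in BAT 2.94% of glial cells had Irx3 and 4.41% had Irx5. With so few glial and myeloid cells, the shares of both genes in WAT precursors could not be told from background at this depth. The background in BAT also rests on few cells, and both points limit the BAT over WAT ratios.

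The chromosome 13 pair showed small differences in the other direction. Irx1 was at 17.3 CPM (16.6 to 18.1) in WAT and 13.9 CPM (13.3 to 14.5) in BAT, a log2 ratio of -0.32 (-0.40 to -0.23). Irx2 was at 6.87 CPM (6.42 to 7.35) and 4.92 CPM (4.59 to 5.26), a log2 ratio of -0.48 (-0.62 to -0.34). Irx4 had 0 UMIs in both depots. Irx1 was concentrated in few cells: the tenth of cells with the most Irx1 held 78.9% of its UMIs in WAT and 76.9% in BAT, with up to 16 and 13 UMIs in a cell, and 274 WAT and 288 BAT precursors had 3 or more.

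Tbx15 was found in most precursors of either depot, at 177 CPM (174 to 179) in WAT and 123 CPM (122 to 125) in BAT, 1.43-fold lower in BAT. At 10000 UMIs per cell, 74.2% of WAT and 63.2% of BAT precursors had a Tbx15 UMI, against 0% to 4.35% of glial and myeloid cells. Tbx18 was at 11.2 CPM (10.6 to 11.8) in WAT and 15.3 CPM (14.7 to 15.9) in BAT, a log2 ratio of 0.44 (0.35 to 0.54). Tbx5 was rare, at 2.29 CPM (2.03 to 2.58) in WAT and 1.45 CPM (1.27 to 1.64) in BAT, and was detected in 2.01% and 1.26% of precursors at matched depth. Glial and myeloid cells of both depots held 0 UMIs of Tbx5, but they were so few that the interval reached 4.68% in the largest of these groups, the BAT myeloid cells, and a difference from background was not detectable. Its neighbour Tbx3, a limb and mammary T-box gene, was at 8.80 CPM in WAT and 3.80 CPM in BAT, a log2 ratio of -1.21 (-1.35 to -1.07).

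En1 was expressed in both depots at similar levels. It was at 33.7 CPM (32.7 to 34.7) in WAT and 43.4 CPM (42.4 to 44.4) in BAT, a log2 ratio of 0.37 (0.31 to 0.42). At matched depth 27.3% of WAT and 32.2% of BAT precursors had an En1 UMI, against at most 3.90% of glial and myeloid cells. En2 had 1 and 2 UMIs.

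Of the 9 genes, which were listed with earlier results known, 3 were at least 2-fold higher in BAT and 0 at least 2-fold lower, where 1.52% of 13136 genes with a mean of at least 1 CPM were higher by that much, 1.59% were lower and 3.11% were apart in either direction. The counting intervals of 5 genes lay above a log2 ratio of 0 and those of 4 below it. The median log2 ratio of the 9 genes was 0.37, and that of all genes -0.04. With so many UMIs counted, an interval away from 0 shows only that these libraries differ and carries no estimate of how pups or cultures vary.

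**Figure D1:**
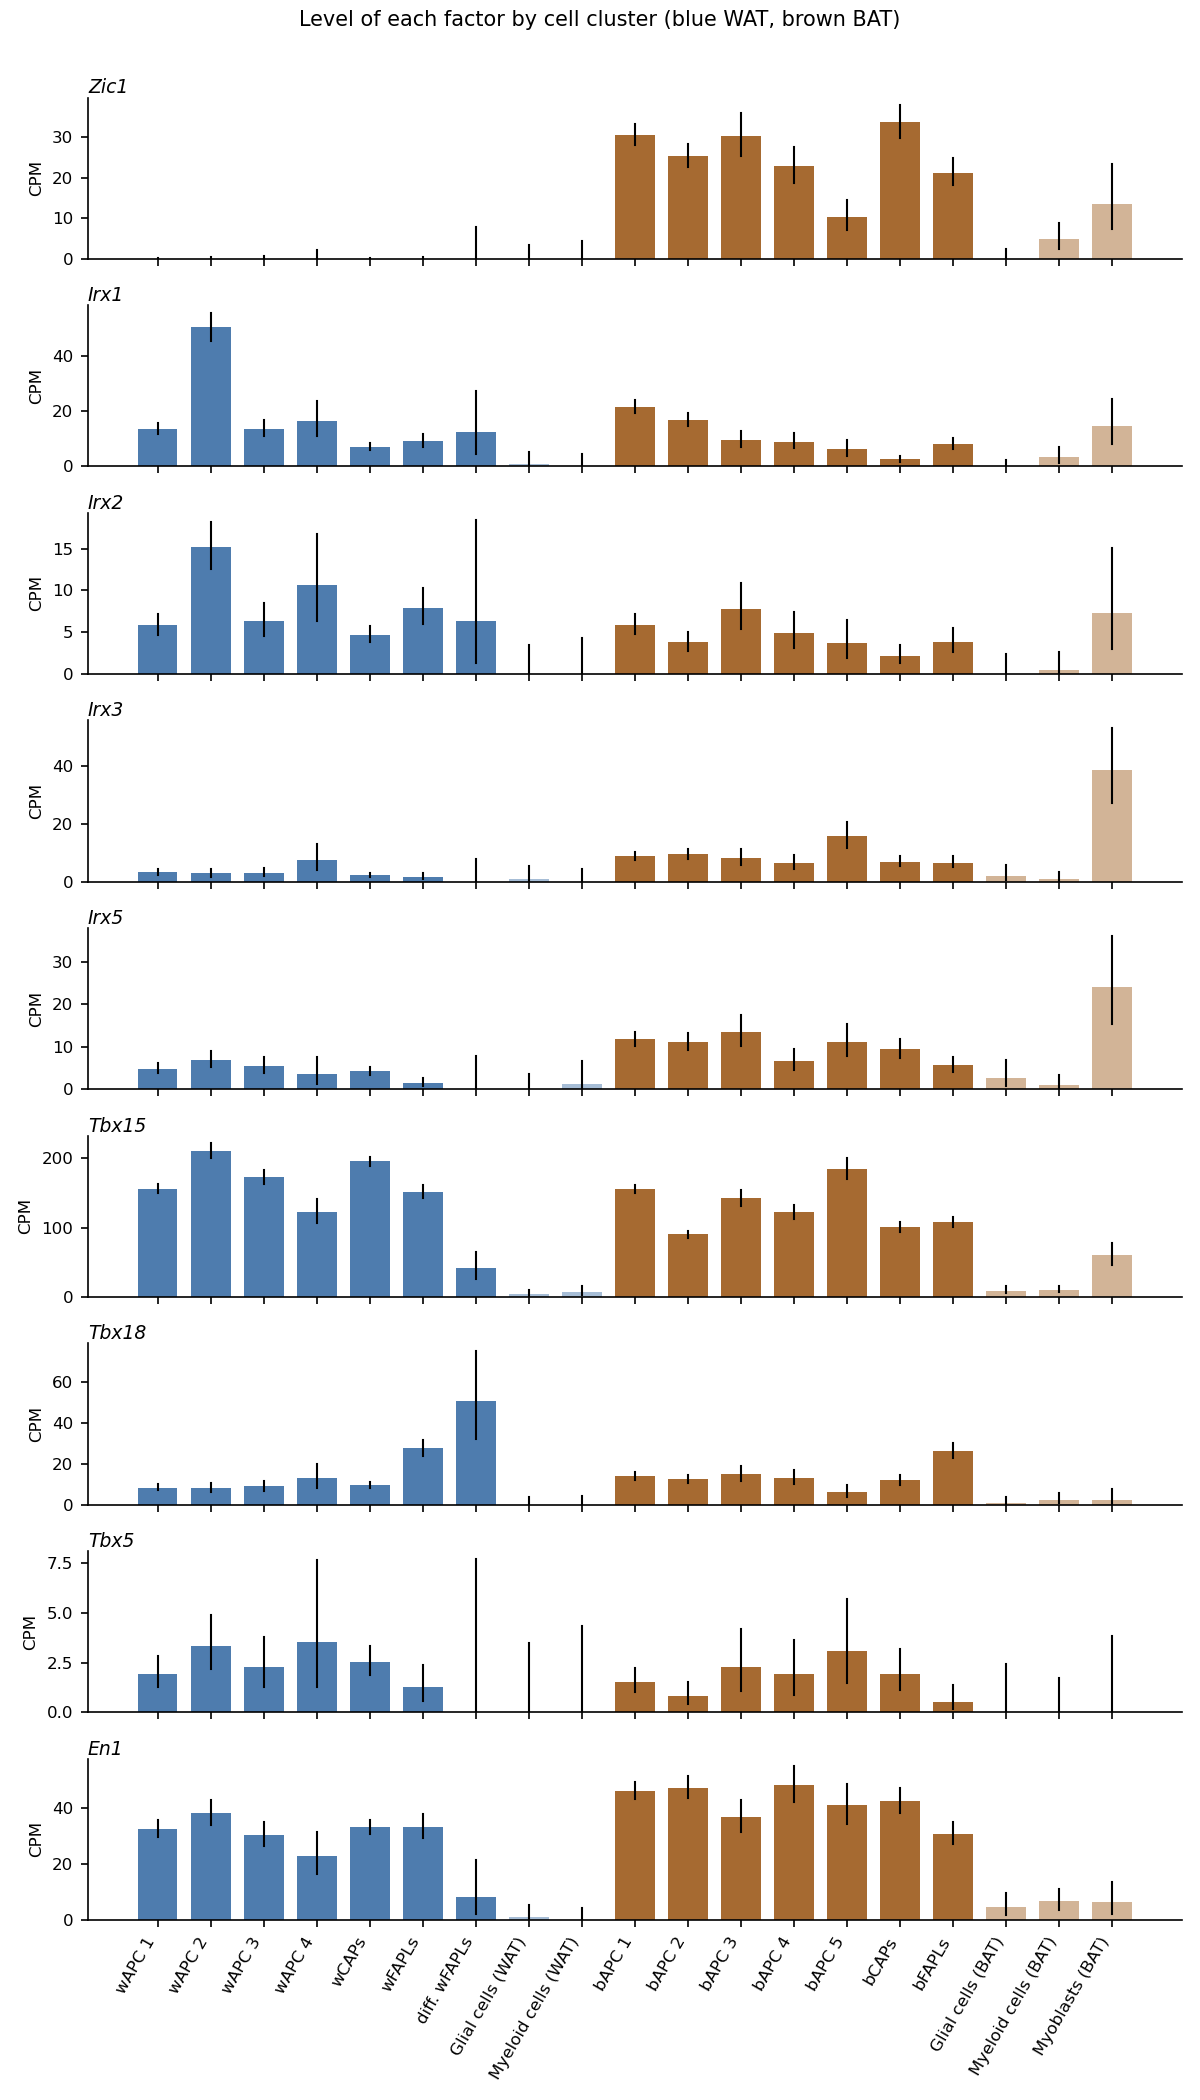
Level of each factor (CPM, linear axes from 0) in the 7 WAT clusters (blue), the 7 BAT clusters (brown) and the non-adipose cells (pale). Bars are levels from summed UMIs and lines their 95% Poisson intervals. Zic1 was at 0 in each WAT cluster and between 10.2 and 33.6 CPM in the BAT clusters, Irx1 peaked at 50.5 CPM in wAPC 2, Tbx18 was highest in fibro-adipogenic clusters and Irx3 and Irx5 were highest in myoblasts.

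Resolved by cluster, Zic1 was present throughout BAT and in no WAT cluster. It was at 33.6 CPM in bCAPs, 30.5 in bAPC 1, 30.4 in bAPC 3, 25.3 in bAPC 2, 22.8 in bAPC 4, 21.2 in bFAPLs and 10.2 (7.04 to 14.4) in bAPC 5. Neighbours in this order did not differ beyond their counting intervals until the last step, where bFAPLs exceeded bAPC 5 by a log2 ratio of 1.05 (0.51 to 1.64). All 7 WAT clusters were at 0 UMIs, which at 3 counts allows up to 0.155 CPM in the 674 wCAPs but 6.29 CPM in the 15 differentiating wFAPLs. Zic1 was the only one of the 9 genes whose WAT and BAT clusters did not overlap, which held for 1.46% of 13136 genes, 0.914% with BAT above WAT. Zic4 ran from 2.17 CPM in bAPC 5 to 9.36 CPM in bAPC 3.

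Irx1 stood out in a single WAT cluster. It was at 50.5 CPM (45.6 to 55.8) in wAPC 2, and the other WAT clusters followed with 16.5 (wAPC 4), 13.7 (wAPC 3), 13.6 (wAPC 1), 12.6 (differentiating wFAPLs), 9.20 (wFAPLs) and 7.01 CPM (wCAPs), and below wAPC 2 no neighbours differed beyond their intervals. In BAT it fell stepwise from 21.7 CPM in bAPC 1 to 16.9 in bAPC 2 and 9.59 in bAPC 3, continued with 9.01 in bAPC 4, 8.09 in bFAPLs and 6.19 in bAPC 5, and was lowest in bCAPs at 2.56 CPM (1.58 to 3.91). Irx2 had its highest level in the same WAT cluster, wAPC 2, at 15.2 CPM (12.6 to 18.2), and its lowest in the committed precursors of each depot, at 4.69 CPM in wCAPs and 2.19 CPM in bCAPs. No neighbours in the order of Irx2 differed beyond their intervals.

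Irx3 was highest in wAPC 4 (7.66 CPM, 13 UMIs) and in bAPC 5 (15.8 CPM), each above the next cluster, and ranged from 0 to 3.27 CPM in the other WAT clusters and from 6.44 to 9.59 CPM in the other BAT clusters. Irx5 ranged from 0 CPM in differentiating wFAPLs and 1.39 CPM in wFAPLs to 6.96 CPM in wAPC 2, and from 5.70 CPM in bFAPLs to 13.5 CPM in bAPC 3, with no neighbours separated by their intervals. Both genes were higher still in the 32 BAT myoblasts, which expressed muscle markers at a summed 6290 CPM. There Irx3 was at 38.7 CPM (27.2 to 53.3) and Irx5 at 24.0 CPM (15.2 to 36.1). Muscle markers summed to 2.17 to 3.56 CPM in the BAT precursor clusters, with 1 to 3 of the 5 at 0.

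Tbx15 separated clusters with small steps at high counts. In WAT its levels were 211 (wAPC 2), 196 (wCAPs), 173 (wAPC 3), 157 (wAPC 1), 152 (wFAPLs) and 123 CPM (wAPC 4), and the differentiating wFAPLs came last with 41.9 CPM (25.6 to 64.8). In BAT the order was 185 CPM in bAPC 5, 156 in bAPC 1, 142 in bAPC 3, 123 in bAPC 4, 108 in bFAPLs, 101 in bCAPs and 90.3 in bAPC 2. All neighbours differed beyond their counting intervals except wAPC 1 and wFAPLs in WAT and bFAPLs and bCAPs in BAT. The highest BAT cluster for Tbx15, bAPC 5, was thus the lowest for Zic1 and Tbx18.

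Tbx18 marked fibro-adipogenic cells in both depots. In WAT it was at 50.3 CPM (32.2 to 74.9) in differentiating wFAPLs, from 24 UMIs in 15 cells, and at 27.6 CPM (23.9 to 31.7) in wFAPLs, against 8.12 to 13.0 CPM in the other 5 clusters. In BAT it was at 26.1 CPM (22.6 to 30.0) in bFAPLs, against 11.8 to 14.8 CPM in bCAPs and bAPC 1 to 4 and 6.19 CPM in bAPC 5. The summed level of 5 mural cell markers (Rgs5, Myh11, Abcc9, Kcnj8 and Notch3) moved the same way, at 257 CPM in wFAPLs, 2917 CPM in differentiating wFAPLs and 220 CPM in bFAPLs, with all 5 over 10 CPM, against 32.1 to 55.4 CPM in the other WAT and 30.6 to 66.9 CPM in the other BAT clusters, where 1 of the 5 was at 0 in bAPC 3 and none elsewhere. Their part in the Tbx18 level was not tested.

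Tbx5 and En1 showed no separated neighbours. Tbx5 was between 0 and 3.54 CPM in WAT and between 0.531 and 3.10 CPM in BAT, from 4 to 49 UMIs per cluster where detected. En1 was between 23.0 and 38.3 CPM in 6 WAT clusters and at 8.39 CPM (4 UMIs) in differentiating wFAPLs, and between 30.9 CPM in bFAPLs and 48.3 CPM in bAPC 4.

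**Figure D2:**
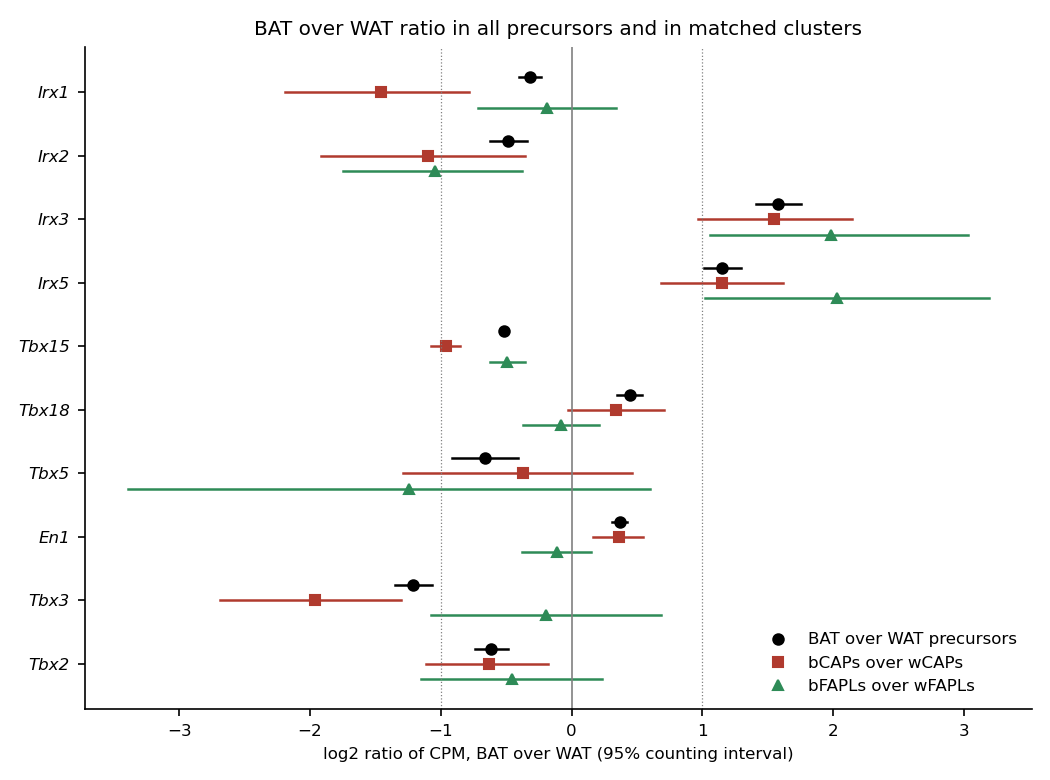
BAT over WAT log2 ratio of CPM (horizontal axis) for each factor in all precursors (circles), in committed precursors (squares) and in fibro-adipogenic cells (triangles), with 95% counting intervals and dotted lines at 2-fold. Zic1 is not drawn because it had 1 or 0 UMIs in WAT. Irx3 and Irx5 lay beyond 2-fold in all 3 comparisons as plotted (not for Irx3 in thinned fibro-adipogenic cells or Irx5 in committed precursors in G1), and En1 and Tbx18 lay near 0 in fibro-adipogenic cells.

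Matched populations of the depots gave a similar picture for Zic1, Irx3 and Irx5. Between committed precursors, 5 of 9 genes were at least 2-fold apart (Zic1, Irx3 and Irx5 higher in bCAPs, Irx1 and Irx2 higher in wCAPs), where 7.93% of all genes tested were (4.24% higher, 3.69% lower in bCAPs). Zic1 had 276 UMIs in bCAPs and 0 in wCAPs, a log2 ratio of at least 7.76 at the floor of 3 UMIs. Irx3 was at 6.95 and 2.37 CPM, a log2 ratio of 1.55 (0.96 to 2.14), and Irx5 at 9.39 and 4.23 CPM, a log2 ratio of 1.15 (0.68 to 1.62). Irx1 was at 2.56 CPM in bCAPs and 7.01 CPM in wCAPs, 2.74-fold lower in bCAPs with a log2 ratio of -1.45 (-2.19 to -0.78), from 21 and 136 UMIs. Irx2 was 2.14-fold lower in bCAPs, and Tbx15 fell just short of 2-fold, with a log2 ratio of -0.96 (-1.07 to -0.85). In G1 cells alone, 3 of the 9 genes were at least 2-fold apart, as Irx1 (-0.98) and Irx5 (0.78) fell under 2-fold. In thinned cells Irx2 (-0.86) fell under 2-fold and Tbx15 (-1.04) passed it, so the count stayed at 5.

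Between fibro-adipogenic cells, Zic1, Irx2, Irx3 and Irx5 were at least 2-fold apart, 4 of the 8 genes with a mean of at least 1 CPM, where 5.09% of all genes tested were (2.21% higher, 2.87% lower in bFAPLs). Zic1 had 160 UMIs in bFAPLs and 0 in wFAPLs, a log2 ratio of at least 5.66 at the floor. Irx3 was at 6.63 and 1.67 CPM, a log2 ratio of 1.99 (1.06 to 3.03), and Irx5 at 5.70 and 1.39 CPM, a log2 ratio of 2.03 (1.02 to 3.19). Irx2 was 2.07-fold lower in bFAPLs (29 against 57 UMIs). Tbx18 and En1, by contrast, were close in both populations, with log2 ratios of -0.08 (-0.37 to 0.21) and -0.11 (-0.38 to 0.15), and Irx1 had -0.19 (-0.71 to 0.34). The count fell to 3 under each alternative, as Irx2 was under 2-fold with carried labels (-0.80) and in G1 cells (-0.55) and Irx3 in thinned cells (0.78).

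Within each depot, committed precursors had less Tbx18 than fibro-adipogenic cells. It was 2.96-fold lower in wCAPs than in wFAPLs (9.33 against 27.6 CPM, log2 ratio -1.56, -1.86 to -1.27) and 2.21-fold lower in bCAPs than in bFAPLs (11.8 against 26.1 CPM, log2 ratio -1.14, -1.51 to -0.79). In WAT, 3 of 8 genes were at least 2-fold apart (7.17% of all genes tested, 3.42% higher and 3.75% lower in wCAPs), the others being Irx5, at 4.23 CPM in wCAPs and 1.39 CPM in wFAPLs, and Tbx5, whose interval reached 0 and which was under 2-fold in thinned cells (0.51). In BAT, 3 of 9 genes were (7.71% of all genes tested, 4.50% higher and 3.21% lower in bCAPs), and besides Tbx18 these were Irx1, 3.16-fold lower in bCAPs with a log2 ratio of -1.66 (-2.45 to -0.92), and Tbx5, with 16 UMIs in bCAPs and 4 in bFAPLs. With carried labels, Tbx18 (-0.86) and Tbx5 (0.43) fell under 2-fold, as did Tbx18 in G1 cells (-0.85). Irx2 passed 2-fold with carried labels (-1.14) and in G1 cells (-1.71), and Irx5 with carried labels (1.07) and in thinned cells (1.01). The count was 3 with carried labels and in G1 cells, and 4 in thinned cells. Zic1 was 1.59-fold higher in bCAPs than in bFAPLs, and En1 1.38-fold. The WAT ratios of Irx1 (-0.39, interval -0.83 to 0.05) and Irx3 (0.50, -0.44 to 1.56) changed sign when cells were thinned to a common depth, to 0.55 and -0.70.

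**Figure D3:**
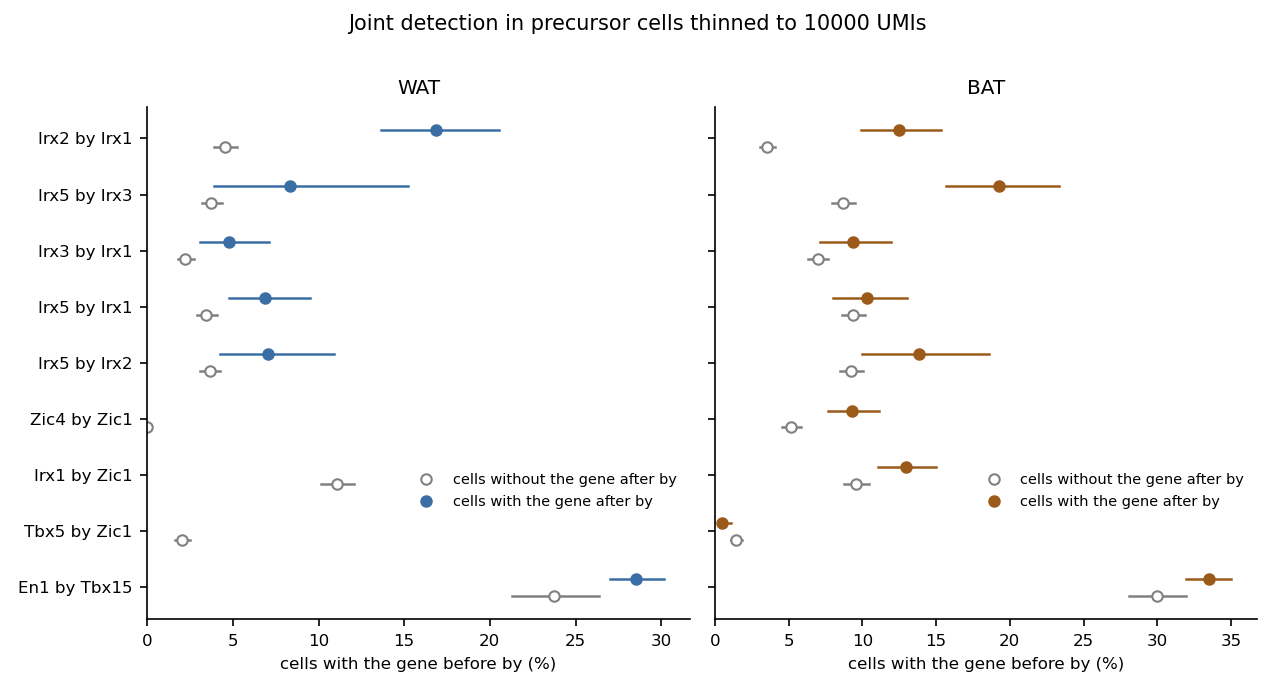
Share of precursors (%) with a UMI of the gene named before "by" among cells with (filled) and without (open) a UMI of the gene named after it, in WAT and BAT cells thinned to 10000 UMIs, with 95% Clopper-Pearson intervals. Irx2 was found in 16.9% and 12.5% of cells with Irx1 and in 4.52% and 3.57% of those without it, and WAT had no thinned cell with Zic1.

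Irx1 and Irx2, neighbours on chromosome 13, were detected in the same cells at raised frequency in both depots. Among cells thinned to 10000 UMIs, Irx2 was found in 81 of 480 WAT precursors with Irx1 (16.9%, 13.6 to 20.5) and in 4.52% (3.88 to 5.22) of those without, a 3.73-fold higher share. In BAT the shares were 12.5% (9.94 to 15.3), from 76 of 610 cells, and 3.57% (3.09 to 4.10), a 3.49-fold higher share. With labels carried over to all precursors, the ratio was above 1 in 13 of the 14 clusters, some of them with as few as 2 cells that held both genes. In the remaining cluster, the differentiating wFAPLs, Irx2 was found in 0 of 3 cells with Irx1 and 2 of 26 without it. The ratio was 2.79 (wAPC 1), 2.87 (wAPC 2), 4.40 (wAPC 3) and 3.76 (wCAPs) in WAT clusters and 3.27 (bAPC 1), 2.97 (bAPC 2) and 1.29 (bAPC 3) in BAT clusters.

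Over all precursors of a depot, the ratio of shares for the chromosome 8 pair was above 1 in both depots. In BAT, Irx5 was found in 83 of 431 precursors with Irx3 (19.3%, 15.6 to 23.3) and in 8.70% (7.97 to 9.47) of those without, and the ratio was between 1.36 and 2.92 in the 7 BAT clusters. In WAT the shares were 8.33% (3.88 to 15.2), from 9 of 108 cells, and 3.72% (3.17 to 4.33), whose intervals overlap, a ratio of 2.24 against 2.21 in BAT, and the difference between depots was not tested. With all UMIs of each WAT cell they were 27.5% (22.4 to 33.2) and 9.12% (8.25 to 10.1). In thinned WAT clusters with carried labels, the ratio was 0 in wAPC 1 (0 of 22 cells with Irx3, 35 of 1005 without) and in wAPC 4 (0 of 6 cells with Irx3). It was 3.25 in wAPC 2, 1.41 in wAPC 3 and 2.82 in wCAPs, from at most 3 cells with both genes. In wFAPLs it was 18.5, from 1 such cell. Over all WAT precursors, genes of different chromosomes also went together. There Irx5 was found in 6.88% (4.78 to 9.52) of precursors with Irx1 and in 3.45% (2.90 to 4.08) of those without. Irx3 was found in 4.79% (3.06 to 7.10) and 2.21% (1.77 to 2.72). Among G1 cells the Irx5 intervals overlapped (3.34 to 9.21% and 2.67 to 4.13%), whereas those of Irx3 did not (3.34 to 9.21% and 1.60 to 2.78%). Irx1 and Irx5 were both highest in wAPC 2, so the pooled shares mix clusters. Within single clusters with carried labels, the Irx5 intervals overlapped. The ratio there ran from 1.22 (wAPC 1) to 4.65 (wFAPLs, 1 cell with both genes), with 2.15 for wAPC 2. In BAT, Irx5 was found in 10.3% with Irx1 and 9.36% without.

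In BAT, Zic4 was found in 110 of 1183 precursors with Zic1 (9.30%, 7.70 to 11.1) and in 5.19% (4.58 to 5.86) of those without. The pair overlaps on opposite strands, which were counted apart. Irx1 was also found more often with Zic1 than without it (12.9% against 9.57%), as were Irx2 (6.09% against 4.08%) and En1 (35.9% against 31.3%). By cluster with carried labels, the ratio of shares for Irx1 was 1.33 in bAPC 1, 1.61 in bAPC 2, 1.92 in bCAPs and 1.27 in bFAPLs. It was 0.96 in bAPC 3, 0.60 in bAPC 4 and 0 in bAPC 5. In G1 cells the En1 shares were 33.8% (30.2 to 37.4) and 31.0% (29.4 to 32.7), whose intervals overlap, and the Irx1 shares were 11.9% and 8.38%. Tbx5, by contrast, was found in 6 of 1183 cells with Zic1 (0.507%, 0.186 to 1.10) and in 1.44% (1.13 to 1.82) of those without. En1 was somewhat more frequent in cells with Tbx15 in both depots, 28.6% against 23.7% in WAT and 33.5% against 30.0% in BAT. A cell without a UMI at this depth may still express a gene, so these shares understate joint expression.

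**Figure D4:**
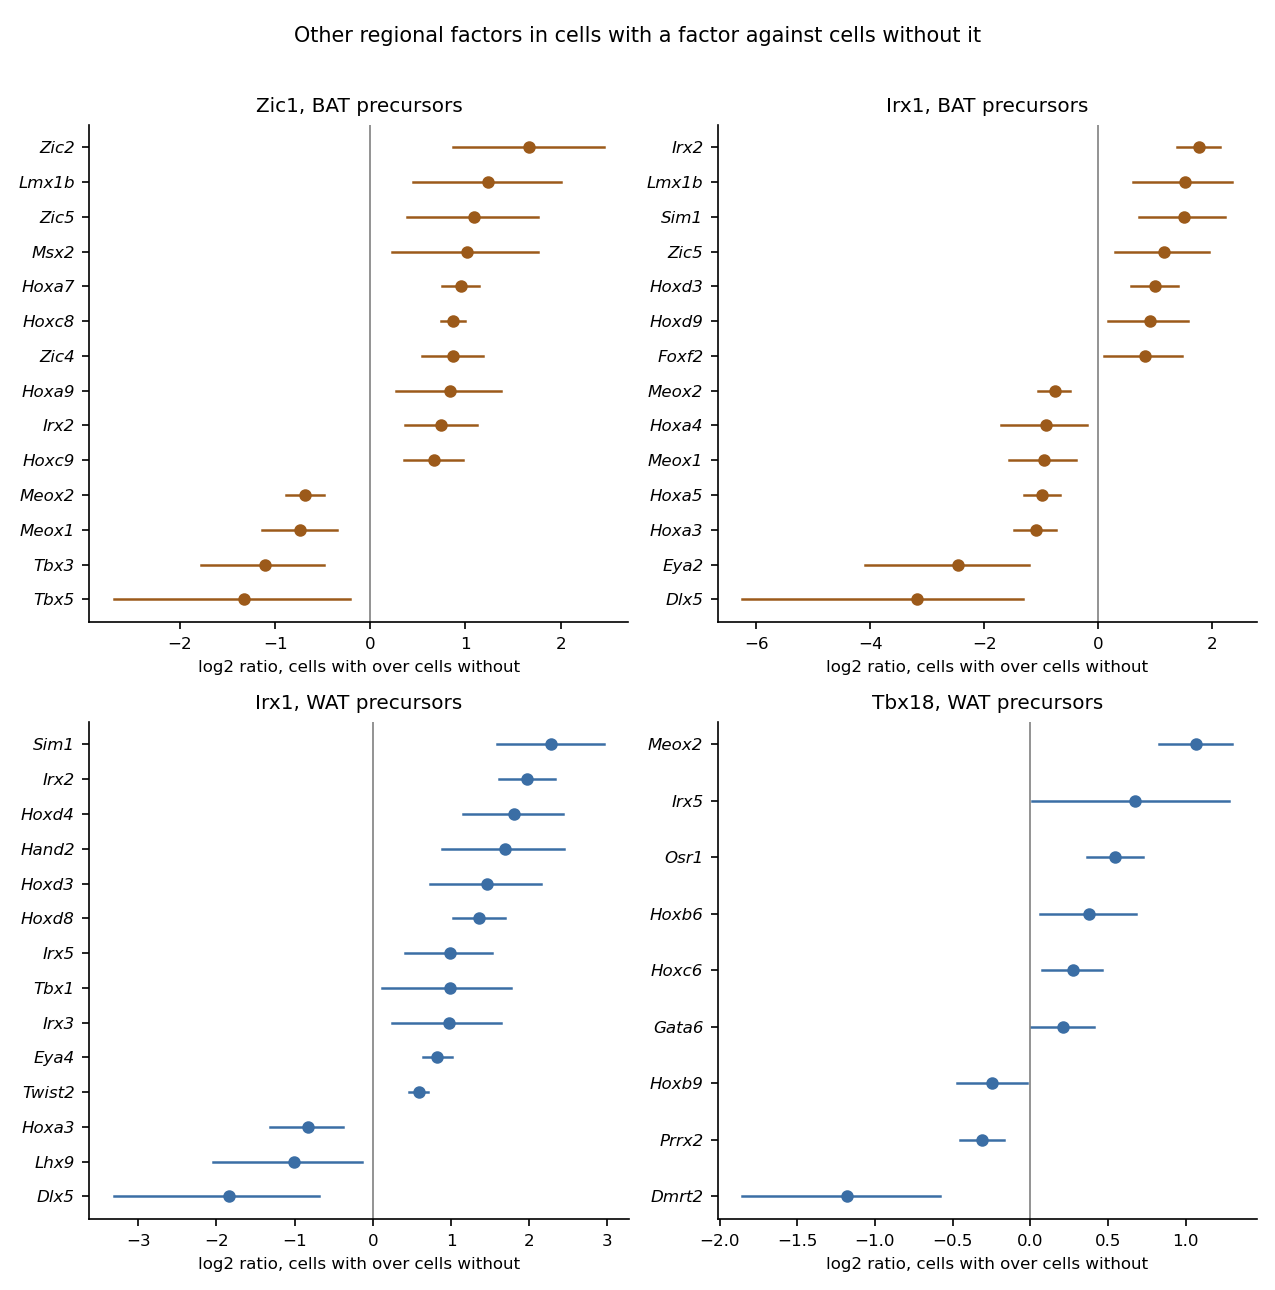
Log2 ratio of CPM in precursors with over precursors without a UMI of the factor in the panel title, in cells thinned to 10000 UMIs, for members, listed regional genes and Hox genes whose 95% counting interval excludes 0 (up to 14 with the largest ratios among the genes reported here). Zic1 cells in BAT had more Hoxc8 and Hoxa7 and less Tbx3 and Tbx5, and Irx1 cells had more Irx2 and Hoxd genes and less Dlx5 in both depots.

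Cells with and without a UMI of each gene were then compared for the other regional factors and the Hox genes, which encode position along the body axis. This comparison, and the genes named in it, were chosen after values had been seen. In BAT, precursors with Zic1 had 63.7 CPM of Hoxc8 against 34.8 in those without, a log2 ratio of 0.87 (0.75 to 1.00), and 28.1 CPM of Hoxa7 against 14.6, a log2 ratio of 0.95 (0.76 to 1.14). They also had more Zic2 (log2 ratio 1.67), Zic5 (1.09), Irx2 (0.75) and Hoxa9 (0.83). Lower in these cells were Tbx3 at 2.03 against 4.35 CPM (-1.10, -1.78 to -0.49), Tbx5 at 7 against 71 UMIs (-1.33) and Meox1 (-0.74). Of the 67 genes compared, 7 were at least 2-fold apart, where 0.535% of all 13082 genes were. Cells with Zic1 were less often in G1 (58.3% against 66.4%), and within G1 cells the ratios were 0.68 for Hoxc8, 0.91 for Hoxa7 and -1.43 for Tbx3. The mural gene Rgs5 was also higher in cells with Zic1 (29.4 against 13.4 CPM), and its part in these ratios was not tested.

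Precursors with Irx1 had more Hoxd3, Hoxd8 and Sim1 and less Dlx5 and Hoxa3 in both depots. In WAT they had more Hoxd8 (21.5 against 8.34 CPM, log2 ratio 1.36, 1.03 to 1.69), Hoxd4 (1.81), Hoxd3 (1.46) and Sim1 (6.46 against 1.32 CPM, 2.29, 1.59 to 2.96). They had less Dlx5 (6 against 173 UMIs, -1.85, -3.31 to -0.69) and Hoxa3 (-0.83). In BAT they again had more Hoxd3 (log2 ratio 0.99), Hoxd8 (0.74) and Sim1 (1.50) and less Dlx5 (-3.19, 2 against 160 UMIs), Hoxa3 (-1.10) and Hoxa5 (-0.98). Of the paraxial mesoderm list, which also holds Sim1, Eya2 was lower there at 0.820 against 4.50 CPM (-2.46, -4.09 to -1.22). Meox1 (-0.96) and Meox2 (-0.77) of that list were lower as well. At least 2-fold apart were 9 of 63 genes in WAT (2.74% of all genes) and 10 of 66 in BAT (2.14%). Irx1 levels differ by cluster, and the part of cluster differences in these ratios was not tested. Among all genes with at least 5 CPM, Cpa6 was 100 CPM in WAT cells with Irx1 and 26.5 in those without. The study uses Cpa6, like Irx1, to mark wAPC 2. The haptoglobin gene Hp was lower with Irx1 in both depots (log2 ratios -2.29 and -2.40). The largest ratio in BAT was that of another acute-phase gene, Saa3, at 54.6 CPM with Irx1 and 3.40 without (4.00, 3.74 to 4.27).

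In WAT, precursors with Tbx18 had 44.6 CPM of the somite homeobox gene Meox2 against 21.3 in those without, a log2 ratio of 1.07 (0.83 to 1.30), while in BAT the values were 37.0 and 29.5 CPM (0.33, 0.14 to 0.51). Dmrt2 was lower with Tbx18 in WAT (5.61 against 12.7 CPM, -1.18, -1.85 to -0.58), but in G1 cells the interval reached 0 (-0.60, -1.29 to 0.02). The mural gene Rgs5 was at 30.2 CPM in WAT cells with Tbx18 and 3.57 CPM in those without, a log2 ratio of 3.08 (2.72 to 3.44). In BAT, Rgs5 was not among the 5 genes most raised with Tbx18, whose log2 ratios ran from 1.03 down to 0.78. The mural gene Abcc9 was among them, at 12.4 CPM with Tbx18 and 6.64 CPM without (0.90, 0.56 to 1.23). Of 67 WAT genes compared, 3 were at least 2-fold apart (2.62% of all genes), and of 65 in BAT none were (0.52% of all genes).

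Cells with the rarest member, Tbx5, were few (87 in WAT and 75 in BAT), and close to 10% of all genes were at least 2-fold apart between them and the remaining cells (9.80% in WAT and 10.1% in BAT), so a ratio of that size was common among all genes. Zic1 was at 9.33 CPM in BAT cells with Tbx5 and 25.4 CPM in those without (log2 ratio -1.45, -2.76 to -0.40). Splitting by En1 left 0 of 67 listed genes at least 2-fold apart in either depot (0.381% and 0.153% of all genes), and splitting by Tbx15 left 2 of 68 in WAT (0.548%) and 0 of 67 in BAT (0.184%). Cells with Tbx15 had less Rgs5 in both depots (log2 ratios -1.53 and -1.17). When cells were split by the remaining Iroquois genes, Irx1 was at 63.5 CPM in WAT cells with Irx2 and 14.4 in those without (log2 ratio 2.14), and at 40.1 against 12.9 CPM in BAT (1.64), with 11 of 65 and 6 of 66 genes at least 2-fold apart (3.82% and 3.65% of all genes). Irx5 was at 24.6 CPM in BAT cells with Irx3 and 9.46 in those without (1.38, 1.06 to 1.68), where 4 of 67 genes were apart (2.12%), against 7 of 65 in WAT (9.01%). Splitting by Irx5 gave 6 of 68 genes in BAT (1.22%) and 9 of 67 in WAT (6.60%), where Meox2 was at 8.43 CPM in cells with Irx5 and 24.1 in those without (-1.51).

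The listed genes of related families and neighbouring body regions were compared between the depots as well. In the Zic, Irx, T-box and En families, 5 of 21 genes reached a mean of 1 CPM, of which Zic4 was higher in BAT, Tbx1 (log2 ratio -3.93) and Tbx3 (-1.21) were lower, and Tbx2 (-0.61) and Mga (-0.28) were under 2-fold, with a median of -0.61. Of all genes tested, 1.52% were at least 2-fold higher and 1.59% lower. Of 25 paraxial mesoderm and dermomyotome genes, 13 were tested, 5 were higher and 1 lower in BAT, with a median of 0.44. The largest ratios were those of Dmrt2, a dermomyotome gene (1.77 CPM in BAT and 11.2 in WAT, -2.67, -2.85 to -2.49), the tendon factor Scx (2.27), Foxc1 (1.76) and Eya2 (660 UMIs in BAT and 147 in WAT). Of 30 lateral plate, limb and head mesoderm genes, 16 were tested, 4 were higher and 6 lower, with a median of -0.56. Pitx1, which specifies the hindlimb, had 2 UMIs in BAT and 690 in WAT (log2 ratio -8.89, -11.94 to -7.04), Lhx9 was lower in BAT (-3.55), and Emx2 was at 7.82 CPM in BAT and 32.6 in WAT (-2.06). The median over all genes was -0.04.

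Over the 14 clusters, the gene most like Irx1 among 10229 genes was its neighbour Irx2, with a Pearson r of 0.79 for log2(CPM + 1), followed by Rrs1 (0.77) and Stambpl1 (0.74). Irx2 was most like Slit3 (0.81), Ergic1 (0.80) and Irx1. Zic1 was most like Atp5k (0.95), Hotairm1 (0.93), a transcript of the Hoxa cluster, and Ilvbl (0.92). As Zic1 was at 0 in all 7 WAT clusters, these values include the step between the libraries, and no r could be formed within WAT. Irx3 was most like Cthrc1 (0.94), Klhl21 (0.93) and Ube2r2 (0.93), and Irx5 like the ribosomal protein genes Rpl36 and Rpl31 (0.94 each). Tbx15 was most like Arsj (0.97), Lrrc49 (0.96) and Runx1t1 (0.95), Tbx18 like Serpinb6b (0.93), Tgoln1 (0.93) and Rasl12 (0.92), and En1 like Mras (0.98), Isoc2b (0.95) and Vps52 (0.95). Tbx5 did not reach 10 CPM in a cluster and was left out. All genes named here for Irx3, Irx5, Tbx15 and En1 were lowest in the 15 differentiating wFAPLs, and those for Tbx18 were highest there. Their r values thus depend on this small cluster. Clusters of a depot also share a library, so the values describe likeness over these clusters only.

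Levels also differed with the cell cycle phase assigned from phase genes. Zic1 in BAT was at 23.5 CPM in G1, 26.2 in S and 35.0 in G2M, and Irx1 in BAT at 11.5, 16.3 and 19.1 CPM. Tbx15 in WAT was at 171, 162 and 205 CPM. Irx2 differed little between S and G2M, at 5.38 and 5.37 CPM in BAT and 7.17 and 7.35 CPM in WAT. Restricting the comparison to G1 cells left Zic1, Irx3 and Irx5 as the 3 genes at least 2-fold higher in BAT.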

How the data were processed

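The authors deposited raw UMI counts for every gene in every captured barcode, without normalization, made with Cell Ranger 7.0.1 and the mm10 genome (10x 3′ chemistry, 1 library per depot). Cell Ranger ran with default parameters, which count sense reads for this chemistry. The members and the gene lists were chosen with earlier results of these data known, so none of them was fixed in ignorance of the values. Cells were kept if their gene number lay between 3900 and 7700, their UMIs between 6000 and 60000 and their mitochondrial share between 1.7 and 5%, which left 4407 of 5261 WAT and 6137 of 7009 BAT cells. Genes found in at least 3 cells counted toward these limits. Doublets were treated only through the upper limits. Cluster labels were read from the study's source data for the first 1999 precursors per depot, although the study clustered all of its precursors. All other cells were labelled by vote of 15 (cluster) or 5 (cell type) nearest labelled neighbours, which gave 91.0% of WAT and 86.6% of BAT labelled cells their own cluster back and removed 46 and 68 glial cells, 29 and 77 myeloid cells and 32 BAT myoblasts.

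CPM was computed from summed counts. Intervals are exact 95% Poisson, Clopper-Pearson or conditional binomial intervals. With 1 library per depot no test was possible. Shares of cells were compared after thinning each cell to 10000 UMIs, which left out 1 WAT precursor. Genes with a mean of at least 1 CPM were counted against a 2-fold limit. The genes named are the 9 members, the family genes beside them on the chromosome, the 3 most alike genes of each member with at least 10 CPM in a cluster, and the 4 listed genes with the largest ratio in each list. Some genes that this rule names are not reported here. The comparison of cells with and without a member, its Hox genes and leading genes, and the overlap of cluster ranges were added after the data were seen. Alternatives were all captured cells, labelled cells only, carried labels, thinned cells, cell means, G1 cells, centring on the median gene, other detection limits and other likeness settings. Steps were tested on simulated counts (7 of 7 passed) and run with scanpy 1.11.5, scikit-learn 1.9.0, scipy 1.17.1, numpy 2.4.6 and pandas 2.3.3 under Python 3.11.15. Coordinates are those of GENCODE vM21.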

Additional observations from a re-analysis of the deposited data

How the results depend on the processing

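Of the main counts and ratios recomputed, 36 stayed within and 20 moved beyond their limit (1.5-fold for counts, the counting interval for ratios). Of the single ratios, 137 stayed within their counting interval, which is wide for low genes, and 12 did not. On thinning, ratios whose intervals held 0 changed sign for Irx1 and Irx3 in wCAPs over wFAPLs, Irx1 in bFAPLs over wFAPLs (0.29) and Tbx5 in bCAPs over wCAPs (0.09), as did Tbx5 (0.01) and En1 (0.02) in bFAPLs over wFAPLs with carried labels. No paired analysis was possible because each depot is 1 library, so no spread remains within a pair. The 3 genes at least 2-fold higher in BAT remained 3 in all captured cells, labelled cells only, thinned cells, cell means, G1 cells and after centring on the median gene. Between committed precursors, G1 cells gave 3 genes at least 2-fold apart in place of 5. Joint detection depended on the detection limit: at 2 UMIs the ratio for Irx2 with Irx1 in BAT was 1.53 and that for Irx5 with Irx3 in WAT 41.2, each from 1 cell with both genes, and with all UMIs the BAT ratios were 1.77 for Irx5 with Irx3 and 2.64 for Zic4 with Zic1. Of the 24 most alike genes, 7 were kept with Spearman correlation, 10 at a minimum of 20 CPM, and 7 without the differentiating wFAPLs. The share of all genes at least 2-fold apart was smaller at a mean of 5 CPM, or at 3-fold: 1.89% and 1.10% for BAT over WAT, 4.40% and 3.38% for bCAPs over wCAPs, 1.84% and 1.79% for bFAPLs over wFAPLs, 3.89% and 3.04% for wCAPs over wFAPLs, and 4.04% and 3.17% for bCAPs over bFAPLs. At 5 CPM fewer listed genes were tested, with 1 family gene and 3 lateral plate, limb and head genes at least 2-fold apart. The highest cluster was kept for 14 to 16 of 17 pairs of gene and depot. Counts limit Tbx5, the differentiating wFAPLs and wAPC 4 most.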
